A study of Mus musculus with 28 samples.

Results

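The classical complement pathway was followed through 8 genes in kidneys and kidney macrophages of mice that lacked Rhbdf2, Fcgr2b, both or neither. The members were taken by symbol: the 3 C1q chains (C1qa, C1qb, C1qc), the proteases C1ra and C1s1, C4b, C2, and Serping1, which encodes the C1 inhibitor. All 8 were among the 12315 genes listed for whole kidney. In macrophages 6 were among the 10523 genes listed, and C1s1 and Serping1 were not listed there. Rhbdf2 encodes iRhom2, a membrane protein needed to bring the protease ADAM17 to the cell surface. Fcgr2b encodes the inhibitory receptor for the Fc part of IgG, and mice without it on this background develop lupus-like nephritis. All mice were female littermates on C57BL/6, aged 7 to 9 months. RNA sequencing was done on 16 whole-kidney libraries, 4 each from wild-type, Rhbdf2-/-, Fcgr2b-/- and Fcgr2b-/- Rhbdf2-/- (double-mutant) mice. A further 12 libraries, 3 per genotype, came from kidney macrophages sorted as CD45+, F4/80-high, CD11b+, Ly6G- and Ly6C-. No label says that each library is a separate mouse, so p-values here reflect only how far these samples lie apart, and part of that may be technical.

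The classical pathway starts when C1q, built from A, B and C chains, binds the Fc parts of IgG or IgM in an immune complex. C1q carries the proteases C1r and C1s: C1r activates C1s, and C1s cleaves C4 and then C2 to form the enzyme that cleaves C3. The C1 inhibitor removes active C1r and C1s from the complex. Most complement proteins are made by the liver, whereas macrophages are a main source of C1q, and fibroblasts and epithelial cells can also make C1r, C1s, C4 and the C1 inhibitor. Inherited lack of C1q, C1r, C1s or C4 predisposes people to lupus. Immune complexes that deposit in glomeruli activate the pathway there.

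Reads in the listed genes numbered 29015084 to 41617960 per kidney library and 30850927 to 34868059 per macrophage library, so that 1 read was worth 0.0226 to 0.0354 CPM in kidney. CPM are the authors' read counts scaled to a common library size. The lane named in the kidney labels differs for each genotype, and genotype and lane cannot be told apart in kidney. In macrophages, titles of libraries with Fcgr2b end in a letter or 1 digit, and titles of those without it end in longer numbers. Whatever that naming stands for cannot be told apart from Fcgr2b there. Reads of Rhbdf2 and Fcgr2b were present in libraries labelled as lacking them. Rhbdf2 stood at 12.9 CPM in wild-type kidneys against 10.8 to 12.3 CPM in Rhbdf2-/- kidneys. Fcgr2b stood at 539 to 715 CPM in wild-type macrophages against 256 to 382 CPM in Fcgr2b-/- macrophages. In double-mutant macrophages Fcgr2b was at 455 to 550 CPM, above every Fcgr2b-/- library and overlapping wild-type. Rhbdf2 there was at 18.1 to 26.6 CPM, against 16.2 to 25.0 CPM in wild-type macrophages. In kidney Fcgr2b overlapped between wild-type (29.3 to 35.8 CPM), Fcgr2b-/- (23.4 to 34.2 CPM) and double mutant (20.7 to 41.5 CPM). No source used here states which part of each gene is deleted, so these levels do not check the labels. The titles of the double-mutant samples name only the Rhbdf2 knockout, and their genotype label was followed. Double-mutant kidney library 4 stood apart from the other 3 of its group in most of the values that follow, and mitochondrial transcripts took 14.3% of its reads against 9.19% to 9.73% in those 3. In Fcgr2b-/- library 4 they took 14.5%, against 5.87% to 9.06% in the other 3 libraries, and 10.4% to 12.0% in the 8 libraries with Fcgr2b present.

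In wild-type kidney, divided by exon length, Serping1 and the C1q A and B chains stood highest. On the scale of CPM per kilobase, Serping1 was at 29.8 ± 10.7 (SD, n = 4), C1qb at 25.9 ± 1.93 and C1qa at 22.1 ± 1.72, and these neighbours overlapped. C1qc followed at 9.60 ± 1.01, apart from both sides. C1ra at 4.01 ± 0.477, C2 at 3.20 ± 0.367 and C1s1 at 2.78 ± 0.526 overlapped in that order, and C4b was lowest at 1.04 ± 0.507. In Fcgr2b-/- kidney C1qb and C1qa led at 134 to 322 and 114 to 273 CPM per kilobase, with Serping1 at 102 ± 52.6, C1qc at 90.1 ± 42.7, C1ra at 9.61 ± 3.86, C1s1 at 7.87 ± 3.37 and C4b at 7.85 ± 2.00, and C2 was lowest at 3.05 ± 0.169.

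**Figure D1:**
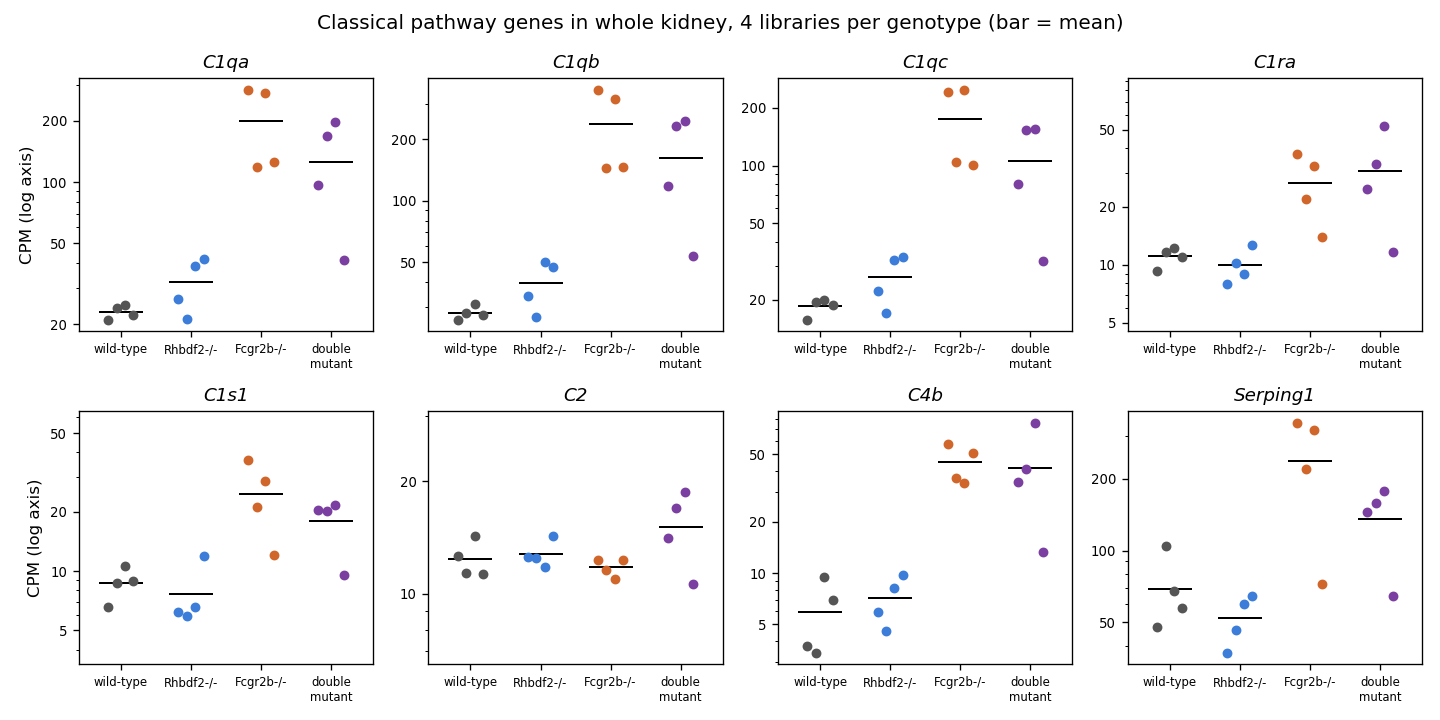
Level of each of the 8 genes in each whole-kidney library, in CPM on a log scale, by genotype, with a bar at the group mean. The 3 C1q chains sat between 15.7 and 50.4 CPM in the 8 libraries with Fcgr2b present and between 31.8 and 350.2 CPM in the 8 without it, while C2 stayed between 10.6 and 18.7 CPM in all 16.

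Loss of Fcgr2b alone went with more RNA of every step of the pathway but C2. Between Fcgr2b-/- and wild-type kidneys 7 of the 8 genes rose, with the C1q chains and C4b up by 2.79 to 3.04 on the log2 scale and C1ra, C1s1 and Serping1 up by 1.10 to 1.61. Of all 12315 genes tested, 29.5% rose and 30.8% fell in the same comparison, so a call by itself was common. The same 7 genes were called under all 24 settings tried. Tests were limma fits on log2(CPM + 1) over the 4 genotypes of a tissue, with Benjamini-Hochberg adjustment over all its genes and a threshold of 0.05. Changes are on that scale, which understates the change of low genes.

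The genes of the C1q chains lie side by side on the minus strand of chromosome 4 in mm10: C1qb at chr4:136880129-136886187, C1qc at chr4:136889804-136893065 and C1qa at chr4:136895917-136898803, with 3616 and 2851 bases between them. Upstream sequence from RefSeq (GRCm38.p6) is shown for C1qb and C1qc, the pair of chains whose ratio is described for macrophages. Windows were available for 4 of the 8 members, C1qb, C1qc, C1ra and C1s1, and not for C1qa. The C1qb stretch is chr4:136886201-136886450 and the C1qc stretch is the part of its promoter window outside annotated exons, chr4:136893066-136893164. Both are on the minus strand, 5′ to 3′, with capitals marking motif matches:
C1qb: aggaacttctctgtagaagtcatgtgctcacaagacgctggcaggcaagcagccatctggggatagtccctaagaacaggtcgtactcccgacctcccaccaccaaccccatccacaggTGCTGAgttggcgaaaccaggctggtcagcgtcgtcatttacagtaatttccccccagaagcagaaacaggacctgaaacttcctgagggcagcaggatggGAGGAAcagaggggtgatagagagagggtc
C1qc: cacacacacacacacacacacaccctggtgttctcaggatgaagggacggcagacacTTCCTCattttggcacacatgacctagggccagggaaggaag
Each window of 250 bases before a RefSeq start was searched on both strands for GAGGAA (a core bound by PU.1, a factor of myeloid cells), TGCTGA (part of a site of MAF factors), TTCNNNGAA (a STAT site), GAAANNGAA (an interferon response core) and TTGCNNAA (a C/EBP site). GAGGAA began 30 bases before the C1qb start and, read on the other strand as TTCCTC, 193 bases before the RefSeq start of C1qc. The C1qc window is chr4:136892915-136893164, so that start lies inside the gene span given above. The TTCCTC match is nearer to the edge of that span than to the RefSeq start. TGCTGA began 131 bases before the C1qb start. The matches did not overlap. GAGGAA was in 23.3% of 32851 promoter windows and TGCTGA in 16.1%. The other motifs had no match in these C1q windows: TTCNNNGAA, GAAANNGAA and TTGCNNAA were in 7.02%, 7.13% and 9.56% of all windows. Outside the C1q genes, C1ra had no match of any motif, and a C1s1 window held TTGCNNAA on the other strand. A match describes letters and not binding, and no binding was measured.

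C1qa, the A chain, was at 21.0, 24.1, 24.9 and 22.1 CPM in the wild-type kidneys and at 283, 119, 272 and 125 CPM in the Fcgr2b-/- kidneys. The groups did not overlap, and within Fcgr2b-/- libraries 1 and 3 were far higher than libraries 2 and 4. The change was 2.95 ± 0.41 on the log2 scale (SE; adjusted p = 3.03e-05, limma).

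C1qb, the B chain, followed the same library order, from 26.0, 28.1, 31.1 and 27.7 CPM in wild-type to 350.2, 145, 315 and 147 CPM in Fcgr2b-/-, a change of 2.92 ± 0.41 (adjusted p = 3.23e-05). C1qc, the C chain, went from 15.7, 19.6, 20.1 and 18.8 CPM to 243, 104, 248 and 101 CPM, a change of 3.04 ± 0.43 (adjusted p = 3.66e-05). For all 3 chains the highest and lowest Fcgr2b-/- libraries differed more than any 2 wild-type libraries did.

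C1ra encodes the protease C1r, the first of the pathway to be activated. It was at 9.23, 11.7, 12.3 and 11.0 CPM in wild-type and 37.5, 21.8, 32.6 and 13.9 CPM in Fcgr2b-/- kidneys, a change of 1.10 ± 0.35 (adjusted p = 0.0145, limma). The groups did not overlap, but library 4 lay just above the wild-type range. C1s1, which encodes the C1s protease, was at 6.58, 8.69, 10.6 and 8.89 CPM in wild-type and 36.7, 21.1, 28.7 and 12.0 CPM in Fcgr2b-/-. That change was 1.32 ± 0.31 (adjusted p = 0.00223), again with library 4 closest to wild-type. The genes lie tail to tail on chromosome 6, C1ra at chr6:124512632-124523440 on the plus strand and C1s1 at chr6:124530345-124542359 on the minus strand. Their counts are uncertain where reads can be shared with near copies. Of the 50-base stretches of C1ra exons 50.8% also occur in another gene (48.0% in C1rb), and for C1s1 the share was 35.1% (21.8% in C1s2). C1rb and C1s2 are not listed in either tissue. An antisense gene, Gm16567, overlaps 18.4% of C1s1 exon bases.

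C4b encodes C4, the first substrate of C1s, and had the lowest wild-type level. It was at 3.75, 3.40, 9.50 and 6.96 CPM in wild-type and at 57.5, 36.4, 34.0 and 51.0 CPM in Fcgr2b-/- kidneys. The groups stood far apart, and within Fcgr2b-/- libraries 1 and 4 were the higher ones, where for the C1q chains libraries 1 and 3 were. The change was 2.79 ± 0.41 (adjusted p = 4.97e-05, limma). C4b lies at chr17:34728380-34743882 on the minus strand, and 34.6% of its 50-base stretches also occur in C4a, its near copy, which is not listed.

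C2, the protease that C1s cleaves after C4, was the member not called. It was at 12.6, 11.4, 14.3 and 11.3 CPM in wild-type and 12.3, 11.6, 11.0 and 12.3 CPM in Fcgr2b-/- kidneys, and the ranges overlapped almost fully. The difference was -0.06 ± 0.13 (adjusted p = 0.713, limma). C2 shares the region of C4b, at chr17:34862604-34898265 on the minus strand, 118721 bases away. Of its 50-base stretches, 38.7% also occur in Gm20547, a gene that overlaps 42.8% of its exon bases on the same strand.

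Serping1, on chromosome 2 (chr2:84765387-84775444, minus strand), encodes the C1 inhibitor. It was at 47.7, 105, 67.7 and 57.2 CPM in wild-type and 342, 219.8, 318 and 72.3 CPM in Fcgr2b-/- kidneys. Library 4 of Fcgr2b-/- lay inside the wild-type range and the other 3 above it. The change was 1.61 ± 0.43 (adjusted p = 0.00503, limma). Fcgr2b-/- library 4 was thus the lowest or near the lowest of its group for every member that rose but C4b.

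With loss of Rhbdf2 alone no member was called. In Rhbdf2-/- kidneys C1qa was at 26.6, 21.3, 38.9 and 41.8 CPM, C1qb at 34.0, 27.0, 50.4 and 47.3 CPM, and C1qc at 22.2, 17.1, 32.3 and 33.5 CPM. For each chain libraries 3 and 4 lay well above all wild-type libraries, library 1 just above them and library 2 inside their range. The differences from wild-type were 0.42, 0.44 and 0.44 on the log2 scale. C1ra was at 7.93, 10.3, 8.96 and 12.6 CPM, C1s1 at 6.20, 5.90, 6.58 and 11.9 CPM, and C4b at 5.93, 4.59, 8.20 and 9.75 CPM. C2 was at 12.5, 12.4, 11.8 and 14.3 CPM and Serping1 at 37.3, 46.6, 59.5 and 64.4 CPM. All 8 genes overlapped wild-type, each adjusted p was 1.00 (limma), no member had an unadjusted p under 0.05, and 0% of all genes were called in this comparison.

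In double-mutant kidneys the C1q chains and C4b remained above wild-type, and no member differed from Fcgr2b-/- by the test. C1qa was at 96.7, 168, 197 and 41.6 CPM, C1qb at 119, 232, 245 and 53.9 CPM, and C1qc at 80.1, 152, 156 and 31.8 CPM. Libraries 2 and 3 lay within the Fcgr2b-/- range, library 1 lay under it, and library 4 lay lowest, below some Rhbdf2-/- libraries for C1qa and C1qc. Against wild-type the changes were 2.18, 2.26 and 2.20 on the log2 scale (adjusted p = 0.0120, 0.0112 and 0.0135, limma).

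C4b in the double mutant was at 34.4, 40.7, 76.2 and 13.3 CPM, all above wild-type, a change of 2.47 (adjusted p = 0.0100, limma). C1ra was at 24.7, 33.2, 52.5 and 11.7 CPM, C1s1 at 20.4, 20.2, 21.6 and 9.54 CPM, and Serping1 at 144, 157, 177 and 64.4 CPM. For these 3 genes libraries 1 to 3 were above every wild-type library and library 4 was inside the wild-type range. Their differences from wild-type were 1.21, 0.92 and 0.93, and none passed the threshold (adjusted p = 0.0513, 0.0868 and 0.206). In the authors' deposited table, which holds their own fold changes and false discovery rates, C1ra was called in this comparison (log2 fold change 1.47, false discovery rate 0.023). C2 was at 14.1, 16.9, 18.7 and 10.6 CPM, with a difference of 0.24 (adjusted p = 0.282). In all, 4 of 8 members rose, against 4.52% of all genes tested. That number was 7 without double-mutant library 4 (all but Serping1) and 3 without wild-type library 1.

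Set against Rhbdf2-/- kidneys, 5 of 8 members rose in the double mutant, against 2.32% of all genes. The changes were 1.76 for C1qa, 1.82 for C1qb, 1.76 for C1qc, 1.36 for C1ra and 2.18 for C4b, with adjusted p between 0.0215 and 0.0486 (limma). C1s1 (1.12, adjusted p = 0.0573) and Serping1 (1.30, adjusted p = 0.0901) missed the threshold, and C2 differed by 0.20. These calls lay close to the threshold: 8 members were called without double-mutant library 4, and none without any single one of Rhbdf2-/- libraries 1, 2 and 3 or double-mutant libraries 1, 2 and 3. With wild-type library 1, 3 or 4 left out 1 member was called, and with wild-type library 2 left out 2 were.

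The comparison of double-mutant with Fcgr2b-/- kidneys asks whether removing iRhom2 alters the pathway in the nephritic kidney. The differences were -0.77 ± 0.41 for C1qa, -0.67 for C1qb and -0.84 ± 0.43 for C1qc on the log2 scale, with adjusted p of 0.142, 0.199 and 0.130 (limma). They were -0.39 ± 0.31 for C1s1, -0.32 ± 0.41 for C4b and -0.68 ± 0.43 for Serping1 (adjusted p = 0.320, 0.545 and 0.212). C1ra differed by 0.11 ± 0.35 (adjusted p = 0.821). No member was called, whereas 22.5% of all genes rose and 22.8% fell. C2 alone had an unadjusted p under 0.05 (0.30 ± 0.13, unadjusted p = 0.0361, adjusted p = 0.0733), and it was called without double-mutant library 4 (0.45, adjusted p = 0.00368), with quantile scaling and with voom. Without that library the C1q differences were -0.32, -0.22 and -0.35. Serping1 was called lower without Fcgr2b-/- library 4 (-1.17, adjusted p = 0.010).

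The test of whether loss of Rhbdf2 acted differently with and without Fcgr2b gave -1.18 ± 0.58 for C1qa, -1.10 for C1qb and -1.28 ± 0.61 for C1qc (adjusted p = 0.143, 0.171 and 0.135, limma). No member passed, and 27.8% of all genes did. C2 passed only without double-mutant library 4 (adjusted p = 0.048).

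**Figure D2:**
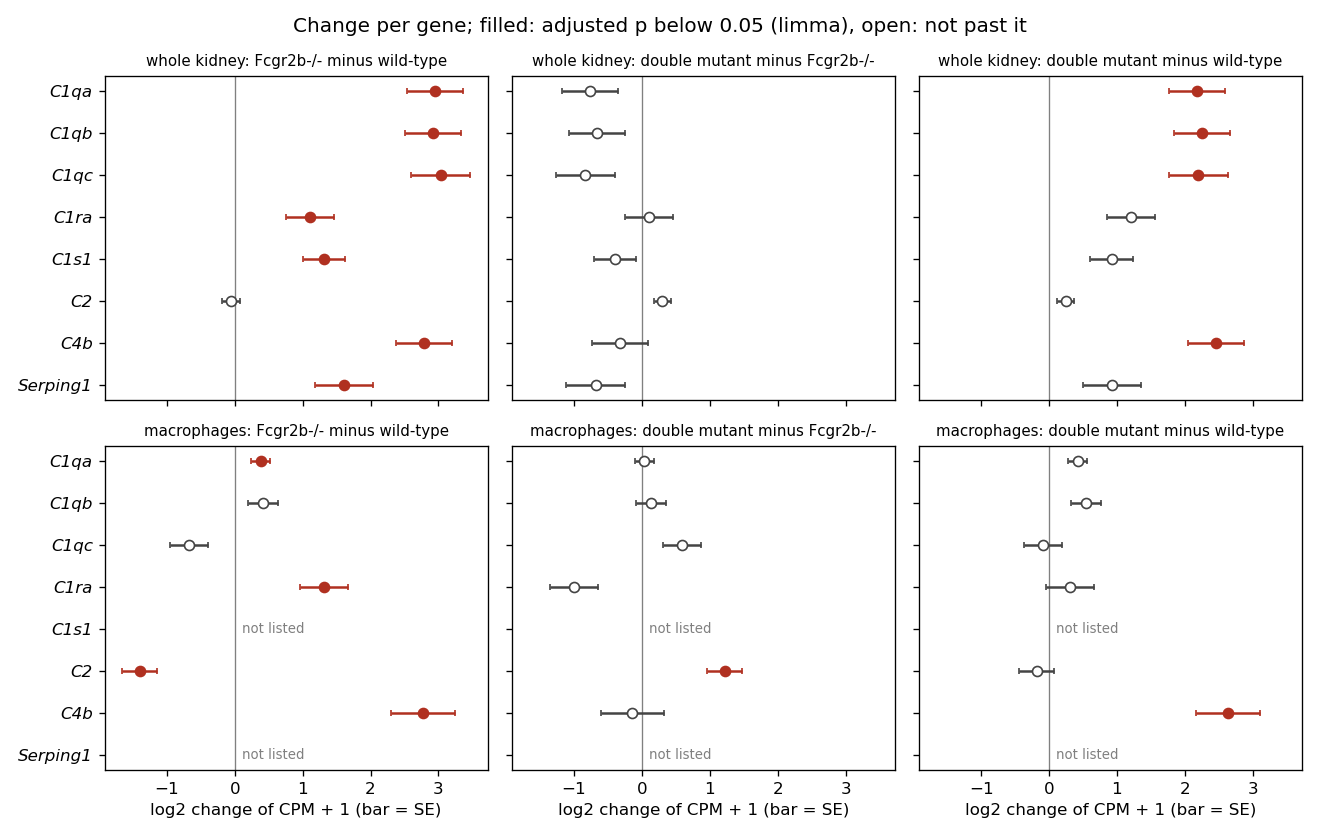
Fitted log2 change of each gene with its standard error, for 3 comparisons in whole kidney (top) and in sorted macrophages (bottom), with filled points where the adjusted p was below 0.05. In kidney the 3 C1q chains and C4b lie between 2.79 and 3.04 for Fcgr2b-/- against wild-type; in macrophages C4b is at 2.78 while C1qc is at -0.68.

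The C1q chains moved together with transcripts of macrophages in kidney, and in bulk tissue more cells of a type and more RNA per cell cannot be told apart. Macrophage markers other than C1q summed to 294 to 346 CPM in wild-type kidneys and 290.4 to 424 CPM in Rhbdf2-/- kidneys. With Fcgr2b absent the sum was 876 to 2256 CPM, and with both genes absent 395 to 1511 CPM. Of 18 markers 15 were listed (Adgre1, Cd163 and Timd4 were not), and in Fcgr2b-/- against wild-type 14 rose and 1, Mertk, fell, with a median change of 2.46 against -0.01 over all genes. Examples were Lyz2, lysozyme of myeloid cells (4.07), Cd68 (2.89) and Mrc1, a mannose receptor (2.80). Of all genes, 29.5% rose and 30.8% fell in Fcgr2b-/- against wild-type. The C1q chains exceeded the mean of these markers by 0.88 to 0.91 log2 units in wild-type and 0.99 to 1.27 units in Rhbdf2-/- libraries, and by 1.48 to 1.87 units in Fcgr2b-/- and 1.25 to 1.77 units in double-mutant libraries. The margin was thus wider in the libraries without Fcgr2b than in most libraries with it, and the part of macrophage number in the C1q change was not tested.

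Fibroblast and pericyte transcripts rose with C1ra, C1s1, C4b and Serping1 in Fcgr2b-/- kidneys, but less than these genes in the double mutant. Their 11 markers summed to 412 to 535 CPM in wild-type and 327 to 497 CPM in Rhbdf2-/- kidneys. Fcgr2b-/- kidneys had 841 to 1964 CPM and double-mutant kidneys 346 to 890.5 CPM. In Fcgr2b-/- against wild-type 8 of 11 rose, against 29.5% of all genes, with a median of 1.09. Col1a1, a fibrillar collagen chain, rose by 2.91. In the double mutant 6 of 11 fell against Fcgr2b-/- (median -0.80), where 22.8% of all genes fell. None of the markers rose against wild-type (median 0.36), where 4.52% of all genes rose. The mean of C1ra, C1s1, C4b and Serping1 minus the mean of these markers was -1.25 to -0.93 log2 units in wild-type kidneys. It was -1.02 to -0.76 in Rhbdf2-/- and -0.88 to -0.52 in Fcgr2b-/- kidneys, which overlapped. In the double mutant it ran from -0.54 to 0.53, above every wild-type and Rhbdf2-/- library. For C4b alone the margin was -2.81 to -1.73 in wild-type and -1.60 to 0.30 in Fcgr2b-/-. For C1ra, C1s1 and Serping1 taken singly, wild-type and Fcgr2b-/- overlapped. Injured tubule markers summed to 2893 to 3259 CPM in wild-type and 8838 to 16531 CPM in Fcgr2b-/-, and proximal tubule markers to 23807 to 26146 and 4547 to 9139 CPM. The part of these shifts in the members' changes was not tested.

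**Figure D3:**
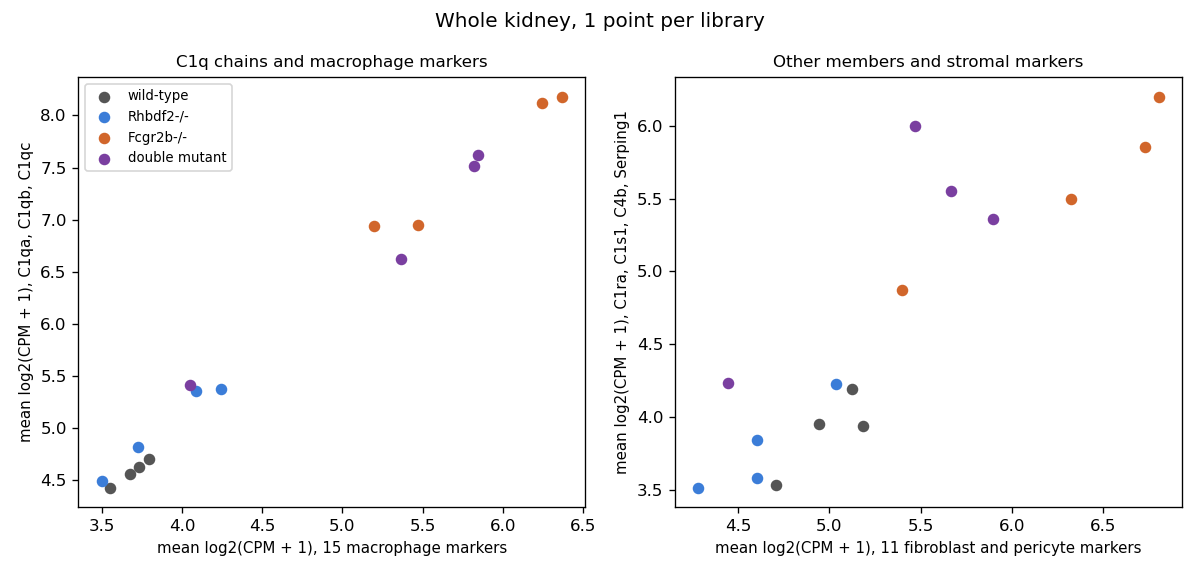
Mean log2(CPM + 1) of the 3 C1q chains against that of 15 macrophage markers (left), and of C1ra, C1s1, C4b and Serping1 against that of 11 fibroblast and pericyte markers (right), with 1 point per whole-kidney library coloured by genotype. On the left 2 Fcgr2b-/- libraries lie highest and double-mutant library 4 lies beside Rhbdf2-/- libraries; on the right double-mutant library 4 is the lowest of its group on both axes.

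The genes whose profiles over the 16 kidney libraries were most like a member were sought by the root mean square difference of centred log2(CPM + 1) values. For C1qa they were C1qb (0.0682 log2 units) and C1qc (0.0717), then Mpeg1, a pore-forming protein of macrophages (0.149), the lysosomal protease Ctss (0.189) and the IgG receptor Fcgr1 (0.194). Of 11587 genes ranked, the other members came lower, C4b at 90, Serping1 at 261, C1s1 at 294, C1ra at 311 and C2 at 3929. For C4b the nearest were Fcer1g, Ctss, Clec12a, Pirb and Cd53, all expressed by myeloid cells, at 0.387 to 0.433, with C1qb at rank 10. For C1s1 they were Stx11, Loxl3, Ifitm3, S1pr2 and Marcks, at 0.212 to 0.234, with C1ra at rank 45 and Serping1 at rank 124. The 3 chains of C1q therefore formed 1 tight profile, and the remaining members did not share it as closely. C1ra and C1s1, whose proteins act as a pair, had a C1ra:C1s1 ratio of 1.16 to 1.40 in wild-type and 1.07 to 1.74 in Rhbdf2-/- kidneys, against 1.02 to 1.16 with Fcgr2b absent and 1.21 to 2.43 with both genes absent. The Rhbdf2-/- range overlapped all 3 others.

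Other genes of complement were mixed in kidney. Of all genes, 29.5% rose and 30.8% fell in Fcgr2b-/- against wild-type, and 22.5% rose and 22.8% fell in the double mutant against Fcgr2b-/-. C3, which the classical enzyme cleaves, rose by 3.84 in Fcgr2b-/- against wild-type, a larger fitted change than that of any member, and C7 of the membrane attack complex rose by 2.25, while C8a and C8g of the same complex fell by 3.69 and 0.96. C3 then fell by 2.45 in the double mutant against Fcgr2b-/- (adjusted p = 0.00645, limma), where no member of the classical pathway was called. Of 7 regulators of C4b and C3b or of the terminal complex, 2 rose (Cfi, the protease that cuts C4b, 1.61, and Clu, clusterin, 1.78) and 1 fell (Cd59b, -0.64), with a median of 0.07. Of 8 genes for proteins that bind C1q or complement fragments 6 rose, with a median of 1.62. They included the integrin subunit Itgam (3.62), the anaphylatoxin receptors C5ar1 (3.05) and C3ar1 (2.88) and Cd93 (1.61), and 4 of the 8 fell in the double mutant against Fcgr2b-/-, Itgam by 1.33, C5ar1 by 1.47, Cd93 by 1.19 and Lrp1 by 1.18. Of the alternative pathway Cfp, properdin, rose (1.84), 1 of 3 genes. The counts of regulators and of alternative pathway genes that rose were near the share of all genes. Of 8 immunoglobulin constant genes, the source of the ligand of C1q, none was called (median 1.89).

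Genes that respond to IL-6 family cytokines through STAT3 and genes that respond to interferon-gamma were counted in kidney as well. All 9 of the first list rose in Fcgr2b-/- (median 2.07), among them Socs3 (3.38) and Lrg1 (3.13), and all 9 fell in the double mutant against Fcgr2b-/- (median -1.24). Against wild-type 4 of the 9 still rose in the double mutant (median 0.83). Of 11 genes of the interferon-gamma list none rose and Gbp3 fell in Fcgr2b-/- (median 0.91), whereas 6 of 11 rose in the double mutant against wild-type (median 1.92) and 2 of 11 against Fcgr2b-/- (median 1.02). Of all genes, 29.5% rose and 30.8% fell in Fcgr2b-/- against wild-type, and 4.52% rose in the double mutant against wild-type. In the double mutant against Fcgr2b-/-, 22.5% of all genes rose and 22.8% fell, so 2 of 11 was no more than the common share.

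In sorted macrophages the C1q chains were the most abundant of the listed members, and the other members lay far below them per length. C1qb was at 8225 ± 2028 CPM per kilobase in wild-type macrophages (SD, n = 3), C1qa at 2419 ± 195 and C1qc at 1420 ± 376, with none overlapping its neighbour. C4b at 2.35 ± 0.841 and C2 at 2.18 ± 0.516 overlapped, and C1ra was at 0.848 ± 0.243. The C1q chains together took 11979.7 to 17792 CPM in wild-type and 14561 to 15613 CPM in Rhbdf2-/- libraries. They took 15452 to 18153 CPM in Fcgr2b-/- and 15986 to 21911 CPM in double-mutant libraries, and the wild-type range overlapped each of the others.

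**Figure D4:**
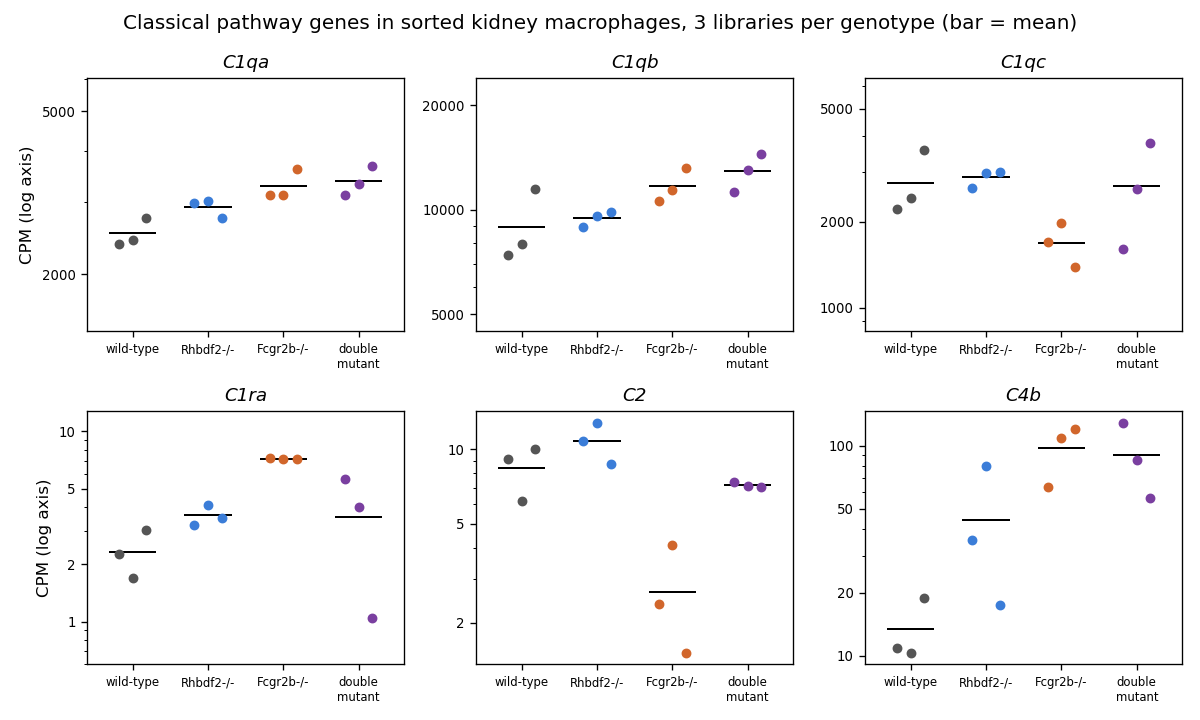
Level of the 6 listed genes in each sorted macrophage library, in CPM on a log scale, by genotype, with a bar at the group mean. C4b was 10.3 to 18.9 CPM in wild-type and 63.9 to 120 CPM in Fcgr2b-/-, while C2 was 6.18 to 9.99 and 1.51 to 4.13 CPM.

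Against wild-type, Fcgr2b-/- macrophages had more C4b, C1ra and C1qa and less C2. So 3 of the 6 members rose and 1 fell, where 24.2% of all genes rose and 28.5% fell. C4b was at 10.9, 10.3 and 18.9 CPM in wild-type and 63.9, 109 and 120 CPM in Fcgr2b-/-, a change of 2.78 ± 0.47 (adjusted p = 0.000468, limma). The groups did not overlap, and the call held in all 20 settings. In Rhbdf2-/- macrophages C4b was at 35.7, 79.8 and 17.5 CPM, which spans from inside the wild-type range to inside the Fcgr2b-/- range. In double-mutant macrophages it was at 128, 85.9 and 56.5 CPM, all above wild-type, a change of 2.64 ± 0.47 (adjusted p = 0.00488) that held in all settings.

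C1ra rose by 1.31 ± 0.35 in Fcgr2b-/- macrophages (adjusted p = 0.00815, limma), from 2.28, 1.69 and 3.03 CPM to 7.23, 7.13 and 7.16 CPM. These are low levels: the lowest library of the series for this gene, double-mutant 3, held 31 reads. In Rhbdf2-/- C1ra was at 3.23, 4.12 and 3.52 CPM, and in the double mutant at 5.62, 4.01 and 1.05 CPM, all below Fcgr2b-/-. The double-mutant to Fcgr2b-/- difference of -1.0 ± 0.35 missed the threshold (adjusted p = 0.0503), and was called in 6 settings. Of 11 fibroblast and pericyte markers 1, Gsn, was listed in macrophages, and the collagen genes Col1a1, Col1a2 and Col3a1 were not.

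C2 went the other way. It was at 9.15, 6.18 and 9.99 CPM in wild-type, 10.9, 12.8 and 8.74 CPM in Rhbdf2-/-, 2.37, 4.13 and 1.51 CPM in Fcgr2b-/- and 7.41, 7.12 and 7.05 CPM in double-mutant macrophages. Every Fcgr2b-/- library was below all 9 others, and its lowest held 49 reads. The change was -1.40 ± 0.26 in Fcgr2b-/- against wild-type (adjusted p = 0.000885, limma) and 1.22 ± 0.26 in the double mutant against Fcgr2b-/- (adjusted p = 0.00476). Both held in all settings, and C2 was the only member called in the second comparison, where 15.8% of all genes rose and 13.8% fell. The interferon-gamma list moved with C2: 8 of its 11 genes fell in Fcgr2b-/- (median -1.15) and 7 rose in the double mutant against Fcgr2b-/- (median 1.23). Among them were Tap1, a peptide transporter (-2.23 and 1.72), and Ciita, the activator of MHC class II genes (-2.49 and 1.93). Summed markers of other cells moved too: dendritic cell markers were at 38.3 to 83.8 CPM in wild-type, 2.17 to 11.5 in Fcgr2b-/- and 90.2 to 193 in the double mutant, and T and NK cell markers had medians of 296, 76.5 and 332 CPM in the same order. Their part in the C2 result was not tested.

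The C1q chains moved little, and not as 1 unit. C1qa was at 2371, 2430.4 and 2748 CPM in wild-type and 3132, 3117 and 3613 CPM in Fcgr2b-/-, a change of 0.39 ± 0.14 (adjusted p = 0.0351, limma). It was called in 11 of 20 settings and lost with wild-type library 1 or 2, Rhbdf2-/- library 1 or 2, Fcgr2b-/- library 2 or 3 or double-mutant library 2 left out, with quantile scaling and in a fit of the 2 groups alone, with an adjusted p of 0.0125 to 0.131 over the settings. C1qb was at 7388, 7985 and 11473 CPM in wild-type and 10616, 11434 and 13152 CPM in Fcgr2b-/-, which overlapped (0.41 ± 0.22, adjusted p = 0.133), and it was called without wild-type library 3 (adjusted p = 0.0123). C1qc was at 2221, 2434 and 3571 CPM in wild-type and 1703, 1982 and 1388 CPM in Fcgr2b-/-. For C1qc every Fcgr2b-/- library was below every wild-type library, and the difference of -0.68 ± 0.28 missed the threshold (adjusted p = 0.0581). It was called with total-read and quantile scaling (adjusted p = 0.0232 and 0.00454) and without double-mutant library 1 or 3.

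In double-mutant macrophages C1qa was at 3119, 3327 and 3681 CPM, C1qb at 11261, 13025 and 14432 CPM, and C1qc at 1606, 2601 and 3798 CPM. Double-mutant C1qc spanned from below wild-type to above it. Only C4b rose against wild-type, 1 of 6 members against 9.88% of all genes, and C1qa missed the threshold (0.42 ± 0.14, adjusted p = 0.0540, limma). In the authors' deposited table C1qa was called in that comparison as well (false discovery rate 0.036).

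In Rhbdf2-/- macrophages C1qa was at 2978, 3017 and 2746 CPM, C1qb at 8946, 9581 and 9864 CPM, and C1qc at 2638, 2976 and 3003 CPM. No member was called against wild-type, and 0.019% of all genes were. C4b had a difference of 1.45 ± 0.47 (unadjusted p = 0.00906, adjusted p = 1.00, limma). No member was called between double-mutant and Rhbdf2-/- macrophages, where 18.2% of all genes were. C4b came nearest (1.19 ± 0.47, adjusted p = 0.0926), and was called without Rhbdf2-/- library 2 (adjusted p = 0.0308). The test of whether loss of Rhbdf2 acted differently with and without Fcgr2b called no member and 11.9% of all genes. C1ra (-1.49 ± 0.50, adjusted p = 0.0750) was called without double-mutant library 1, and C4b (-1.59 ± 0.66, adjusted p = 0.139) without Rhbdf2-/- library 3.

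The ratio of C1qc to C1qb within a library does not depend on scaling, and it separated the macrophages by Fcgr2b. It was 0.301, 0.305 and 0.311 in wild-type and 0.295, 0.311 and 0.304 in Rhbdf2-/- macrophages. It was 0.160, 0.173 and 0.106 in Fcgr2b-/- and 0.143, 0.200 and 0.263 in double-mutant macrophages. All 6 libraries without Fcgr2b were below all 6 with it, by 0.86 on the log2 scale on average (-0.86; exact two-sided permutation p = 0.00216, the smallest this design can give, and 0.0130 adjusted over 6 such tests). The grouping by Fcgr2b was chosen after the values were seen, so the test is a description of a pattern already noticed. The style of the library titles splits in the same way, so Fcgr2b and whatever that naming stands for cannot be told apart. Each library left out in turn gave -0.99 to -0.73. C1qc to C1qa was also lower on average without Fcgr2b, with overlap (exact permutation p = 0.0108, adjusted 0.0324), and C1qa to C1qb did not differ by the test (exact permutation p = 0.128, adjusted 0.256). In whole kidney the C1qc:C1qb ratio was 0.603 to 0.707 with Fcgr2b and 0.591 to 0.786 without it, overlapping fully (exact permutation p = 0.389, adjusted 0.467).

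**Figure D5:**
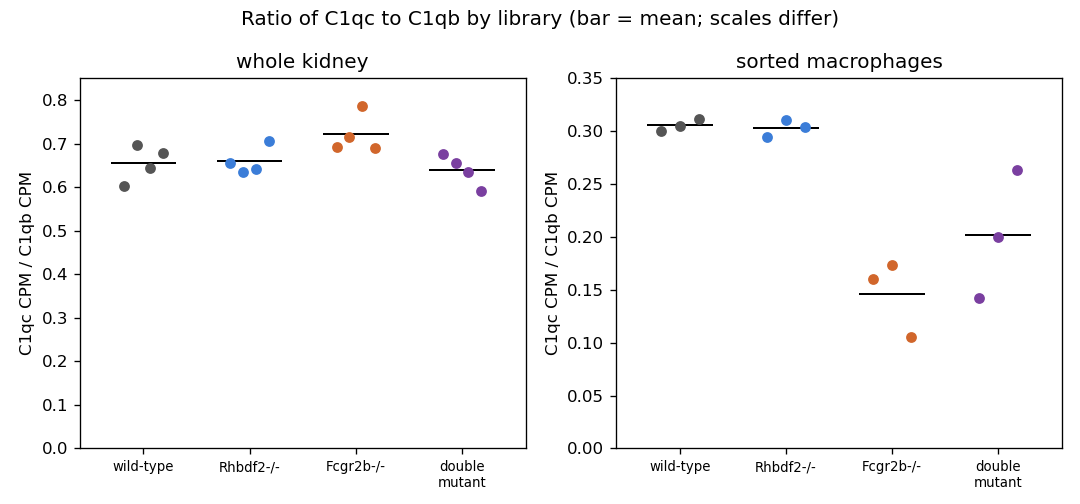
Ratio of C1qc to C1qb CPM in each library, by genotype, for whole kidney and sorted macrophages, with a bar at the group mean. In macrophages the 6 libraries with Fcgr2b lie between 0.295 and 0.311 and the 6 without it between 0.106 and 0.263, whereas the kidney groups overlap.

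The RNA of the sorted macrophages differed between genotypes in other ways too. Mitochondrial transcripts took 1.23% to 3.96% of reads in wild-type and 1.94% to 2.94% in Rhbdf2-/- macrophages, against 0.721% to 1.06% with Fcgr2b absent and 0.891% to 1.24% with both genes absent. Proximal tubule markers summed to 381 to 1327, 861 to 1573, 101 to 572 and 230 to 375 CPM, and immunoglobulin constant genes to 1126 to 4047, 1175 to 2789, 217 to 445 and 711 to 1105 CPM in the same order. The sum of the injured tubule list, of which Havcr1 and Sox9 were not listed, went the other way. It was 830.5 to 1470.4 CPM in wild-type, 8687 to 10559 CPM in Fcgr2b-/- and 993 to 1752 CPM in double-mutant macrophages. Of its 6 listed genes 4 rose and 1 fell in Fcgr2b-/- against wild-type, with a median of 1.00, well under the change of the sum. Such a sum does not show which cells its RNA came from. Within wild-type, library 3 stood apart from the other 2, with the lowest mitochondrial share and the highest C1qb and C1qc. The part of these shifts in the C1q ratio was not tested. Of 18 macrophage markers other than C1q 16 were listed, and Adgre1, which encodes the F4/80 antigen used in the sort, and Timd4 were not. The listed ones summed to 20416 to 26120 CPM in wild-type and 40618 to 54088 CPM in Fcgr2b-/-. The C1q chains exceeded the mean of these markers by 2.79 to 3.11 log2 units in wild-type and 2.95 to 2.99 units in Rhbdf2-/- macrophages. The margin was 2.28 to 2.59 units in Fcgr2b-/- macrophages, below every other library, and 2.64 to 3.21 units in double-mutant macrophages, which overlapped wild-type.

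Profiles over the 12 macrophage libraries set C1qc much further from C1qa than C1qb was. C1qa itself varied little there, with a root mean square deviation of 0.190 log2 units from its mean. Among the genes most like C1qa were Commd4, Asah1, Mcl1 and Eef1d (0.0770 to 0.0931 log2 units). Of 9721 genes ranked, C1qb was at rank 125 and C1qc at rank 6687. For C4b they were Cd300lf, Fpr1, Gpr35, Pltp and Gypc, at 0.548 to 0.611.

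Downstream of the classical enzyme, C3 rose by 3.46 in Fcgr2b-/- macrophages and by 2.86 in double-mutant macrophages against wild-type. Both alternative pathway genes listed rose in Fcgr2b-/- macrophages, Cfp by 3.48 and Cfb, whose protein is the counterpart of C2, by 2.55. C2 and Cfb thus changed in opposite directions. Of all genes, 24.2% rose and 28.5% fell in Fcgr2b-/- against wild-type macrophages. Of 9 genes for proteins that bind C1q or fragments 7 rose and 2 fell, with Lrp1, a receptor for many ligands, at 3.01 and Itgam at 2.98, against a median of -0.09 over all genes. Of the 3 listed genes of the lectin pathway and near copies of C1r and C1s, the scavenger receptor Colec12 (2.59) and C1rl (1.51) rose and Masp1, a lectin pathway protease, fell (-1.77).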

How the data were processed

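Whole-kidney libraries (TruSeq) and macrophage libraries (SMART-Seq v4) were sequenced as single reads (50 bases in kidney), per the labels' protocols. The authors deposited log2 CPM per library, with exon lengths, log2 fold changes and false discovery rates (adjusted p-values) of their own comparisons. The 2 tissues were normalized separately and were tested separately. The build is mm10 (GRCm38), per the submitters' processing notes. On aligner, counter and use of strand, nothing is given in the sources used here. Deposited values were turned back to CPM, which still hold an added prior of 0.806 to 1.27 reads. Less that prior, all values of up to 50 reads came out whole within 0.1 read. Each tissue was fitted with limma 3.58.1 (R 4.3.3) on log2(CPM + 1), with a trend and all 4 genotypes in 1 fit. P-values were Benjamini-Hochberg adjusted over all genes, at a threshold of 0.05. The script was tested on simulated data. Alternatives were other pseudocounts, filters and scalings, voom on recovered reads, fits of 2 groups, the authors' table and each library left out. Named genes were the members, at most 4 genes of each list with the smallest p, and the 5 genes most like 3 chosen members. Some genes that this rule selects are not reported here. Members and lists were chosen with earlier results of these data known. The C1qc:C1qb ratio, its grouping and its alternatives were added after the data were seen.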

Additional observations from a re-analysis of the deposited data

Results flagged for a closer look

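Of 32 groups of 4 kidney libraries examined, 1 for each member and genotype, 2 held a library far from the other 3, and about 1 in 20 such groups is expected by chance. C1s1 in Rhbdf2-/- replicate 4 was the highest of its group at 11.9 CPM, and the gap to the next library was 0.885 of the group's range. C1s1 in double-mutant replicate 4 was the lowest of its group at 9.54 CPM, with a gap of 0.884 of the range. C1qc in Fcgr2b-/- against wild-type differed in opposite directions in the 2 tissues. Every Fcgr2b-/- library lay above wild-type in kidney and below it in macrophages. The macrophage change of -0.68 was not called (adjusted p = 0.0581, limma), and was called in 4 of 20 settings. The flag rested on group ranges that did not overlap, and how many of all genes do so in both tissues was not counted. The 2 changes lay 3.72 apart on the log2 scale. This difference between tissues was not tested, since they were normalized separately.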

How the results depend on the processing

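Replicate numbers are not shared between genotypes in the labels, except that the letters a and b stand in wild-type and Rhbdf2-/- macrophage titles. Used as a replicate block, in a fit added after the data were seen, they left the number of members called at 0. Same-lettered libraries had deviations correlated at 0.242 (a) and -0.054 (b), so the letters were not taken as pairs. The number of members called in double-mutant against Fcgr2b-/- kidney was 0, and 1 with quantile scaling or voom, and 0 to 1 with a library left out. For double-mutant against wild-type kidney it was 3 to 7 with a library left out. For double-mutant against Rhbdf2-/- kidney it was 1 with total-read scaling, 3 with quantile scaling, 0 with voom, 1 in a fit of the 2 groups alone and 0 to 8 with a library left out. In macrophages it was 2 in double-mutant against Fcgr2b-/- with genes of mean log2 CPM of at least 1, total-read scaling or voom, 3 with quantile scaling and 1 to 3 with a library left out. In double-mutant against wild-type macrophages it was 2 with voom or in the authors' deposited table, and 1 to 3 with a library left out. With a library left out it was 0 to 1 in double-mutant against Rhbdf2-/- macrophages and in both interaction tests. The causes of these shifts were not tested. Log2 differences that reversed sign are given as ranges over libraries left out and then by scaling, and no reversed value passed the threshold. In kidney, Fcgr2b-/- against wild-type, C2 ran from -0.10 to 0.0062 and was 0.14 with total reads. In Rhbdf2-/- against wild-type kidney C2 ran from -0.0077 to 0.11. In double-mutant against Fcgr2b-/- kidney C1ra ran from -0.21 to 0.49 and was -0.010 with total reads, and C4b from -0.69 to 0.12. In the kidney interaction C1ra ran from -0.058 to 0.63, C1s1 from -0.49 to 0.066 and Serping1 from -0.80 to 0.021. In double-mutant against Fcgr2b-/- macrophages C1qa ran from -0.0258 to 0.11 and was -0.064 with total reads, C4b ran from -0.43 to 0.15, and C1qb was 0 with quantile scaling. In double-mutant against wild-type macrophages C1qc ran from -0.39 to 0.23 and C1ra from -0.037 to 0.81 (called without double-mutant library 3, adjusted p = 0.0395, limma), and C2 was 0.032 with quantile scaling. In double-mutant against Rhbdf2-/- macrophages C1qc ran from -0.49 to 0.13 and C1ra from -0.52 to 0.32, with C1ra at 0.25 with quantile scaling. In Rhbdf2-/- against wild-type macrophages C1qb ran from -0.018 to 0.30 and C1qc from -0.040 to 0.30. In the macrophage interaction C1qb ran from -0.16 to 0.15 and was -0.012 and -0.097 with total-read and quantile scaling. Total-read scaling moved the median of all genes by 0.20 in Fcgr2b-/- against wild-type kidney, by -0.12 in double-mutant against Fcgr2b-/- kidney and by -0.15 in double-mutant against wild-type macrophages. Depth limits C1ra and C2 in macrophages most, with 31 and 49 reads in the lowest library.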
